A study of Mus musculus with 2 samples.

Results

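The genes Lefty1, Lefty2, Sall4 and Trim28, 4 of the 49997 genes of the annotation used, were followed through 3 intervals of the mouse genome in a methylRAD experiment on F9 cells. The intervals, on build GRCm38, were chr1:180865000-180965000, which holds Lefty1 and Lefty2, chr2:168720000-168795000, which holds Sall4, and chr7:13000000-13055000, which holds Trim28. Every methylation site that either library listed inside them was taken, which gave 137 sites at the Lefty1 and Lefty2 locus, 83 at the Sall4 locus and 39 at the Trim28 locus. Together these were 259 of the 1370254 sites of the series. F9 is an embryonal carcinoma line, a tumour-derived cell that resembles the early embryo and leaves the pluripotent state when given retinoic acid. Where the enhancers of these genes lie is not given in the sources used here, so sites are placed by gene and by distance from its start. The series asked how enhancers keep pluripotency genes active in such cells.

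One library came from undifferentiated F9 cells grown on gelatin, and the other from cells of the same line at day 4 of differentiation in low-attachment dishes with 1 µM retinoic acid. The descriptions of both also carry the word untreated without saying of what, and both name the same sequencing run. MethylRAD uses FspEI, an enzyme that cuts beside methylated cytosines, and counts the short fragments it releases, so that a more methylated site gives more reads. The undifferentiated library held 20550450 counts, 16687588 of them at CCGG sites, and the differentiated library held 21291239, with 15705436 at CCGG sites. Sites were listed only from 5 counts upward, so an unlisted site had 0 to 4 counts, at most 0.240 per 1000000 CCGG counts (the unit of every level below, written CPM) before and 0.255 after differentiation, and cannot be read as unmethylated. With 1 library per state no difference has a replicate check. Fisher's exact tests and 95% intervals below cover counting error only, treat reads as independent, and compare these 2 libraries rather than the conditions.

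Lefty1 and Lefty2 encode secreted inhibitors of Nodal, a ligand of the TGF-β family that acts through activin receptors, Smad2 and Smad3, and both are themselves targets of that signal in pluripotent cells. Sall4 is a zinc finger transcription factor of the pluripotency network that recruits the NuRD repressor complex. Trim28, also called KAP1, is the co-repressor that KRAB zinc finger proteins bring to transposable elements, where it assembles the H3K9 methyltransferase Setdb1 and HP1 proteins. Active promoters and many active enhancers lack CpG methylation, whereas gene bodies usually carry it. CCGG sites hold a CpG. CCAGG and CCTGG, each the reverse complement of the other, place the methylated cytosine outside CpG.

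No CCGG site was listed within 1 kb of the starts of Lefty1, Sall4 and Trim28, and 2 were listed there at Lefty2, both in the undifferentiated library only. The sequence upstream of Trim28, and one that lies farther than 1 kb inside Sall4, show unlisted motifs. These sequences are parts of RefSeq promoter windows on GRCm38.p6. The first pair are the 250 bases before a start, and the last pair are 30 bases around a site. All are written 5′ to 3′ on the plus strand with each CCGG, CCAGG and CCTGG motif in capitals. They are shown because every capital motif in the first pair was unlisted in both libraries, while the capital motifs of the last pair were listed in the differentiated library only.
Trim28, chr7:13023902-13024151: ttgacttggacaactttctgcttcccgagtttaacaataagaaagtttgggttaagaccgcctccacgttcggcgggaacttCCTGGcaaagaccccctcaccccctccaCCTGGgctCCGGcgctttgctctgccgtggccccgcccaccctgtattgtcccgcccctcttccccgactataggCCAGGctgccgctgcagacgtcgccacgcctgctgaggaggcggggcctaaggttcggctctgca
Gm14261, chr2:168765893-168766142: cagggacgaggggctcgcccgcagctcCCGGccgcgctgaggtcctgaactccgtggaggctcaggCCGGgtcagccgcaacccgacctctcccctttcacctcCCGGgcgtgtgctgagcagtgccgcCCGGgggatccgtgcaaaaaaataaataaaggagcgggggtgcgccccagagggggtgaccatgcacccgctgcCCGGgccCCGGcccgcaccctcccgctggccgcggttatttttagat
Trim28 site, chr7:13024171-13024200: cgcgggttgccagCCTGGgtgcaccgtgcg
Tmem63a site, chr1:180942377-180942406: ggtcctgctggggCCGGcgcgagcgaagag
The Trim28 sequence ends at the base before its start and holds 4 motifs, 1 CCGG, 1 CCAGG and 2 CCTGG. The second sequence lies upstream of the long non-coding RNA gene Gm14261, within Sall4, and holds 6 CCGG motifs. The third surrounds a CCTGG 32 bases downstream of the Trim28 start, which had 11 counts in the differentiated library. The fourth surrounds a CCGG near the start of Tmem63a, the next gene after Lefty1, which also had 11 counts in that library. Lefty1, Lefty2 and Sall4 themselves were not in the promoter table.

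The 14 promoter windows of the 3 loci held 0 to 6 CCGG motifs each, of which 0 were listed before and 1 after differentiation. The same windows held 0 to 5 CCAGG and CCTGG motifs each, of which 0 and 1 were listed. Among the 32851 windows of the genome, 52.8% held a CCGG, and 10.3% of those CCGG motifs were listed before and 11.7% after differentiation. A CCAGG or CCTGG was found in 70.6% of windows, and 5.38% and 8.53% of these motifs were listed. Most motifs of promoter windows across the genome were thus unlisted in each library. Motifs outside such windows were not counted, and whether the windows of the loci differed from the rest was not tested.

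Measured from the last listed CCGG site before a start to the first after it, with both libraries joined, the stretch was 1.39 kb at Lefty2, 8.75 kb at Lefty1, 10.87 kb at Trim28 and 14.42 kb at Sall4. Over the 32812 gene starts examined the median was 4.57 kb, with quartiles of 2.07 and 9.51 kb. The Lefty2 stretch was below that lower quartile, that of Lefty1 was between the quartiles, and those of Trim28 and Sall4 were above the upper one. At 2 genes the stretch differed between the libraries. Around Lefty2 it was 1.39 kb before and 7.74 kb after differentiation, and around Sall4 it was 19.54 and 14.42 kb. Both differences rest on sites listed in a single library, none of which was called. Like Lefty1, Sall4 and Trim28, 47.4% of all starts had no listed CCGG within 1 kb in either library. CCGG motifs were counted only in promoter windows, so how many lie in the stretches is unknown. A long stretch cannot therefore be read as unmethylated.

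**Figure D1:**
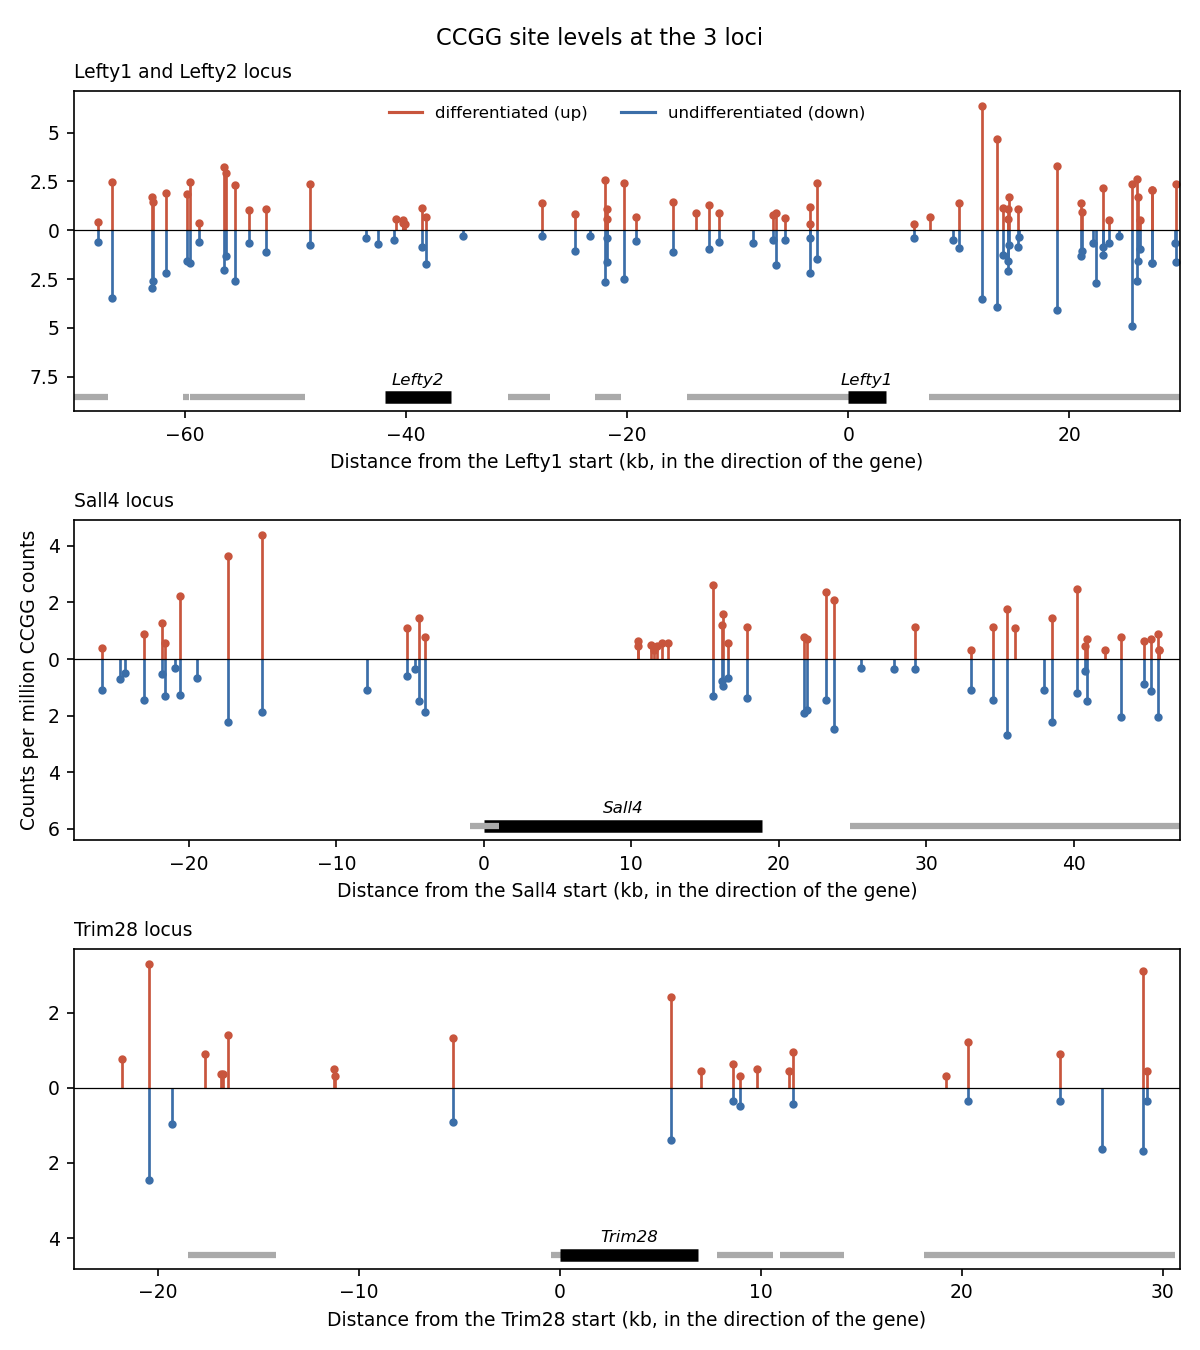
CCGG levels in counts per 1000000 CCGG counts, upward for the differentiated and downward for the undifferentiated library, against distance in kb from the start of Lefty1, Sall4 or Trim28 in the direction of the gene. Black bars mark the 4 genes and grey bars the neighbouring genes, and unlisted sites have no stem. The reader should see stretches without stems around the starts, where CCGG motifs were not counted beyond promoter windows. The 7 small stems inside Sall4 are in the differentiated library only, and the stems at the Trim28 locus point mostly upward.

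Within Lefty2 (chr1:180893108-180899107) the sites listed near the start were not the same in the 2 libraries, although the gene as a whole did not pass the test. Negative distances from a start lie upstream of it. In the undifferentiated library 3 CCGG sites across the start, at chr1:180891389, chr1:180892524 and chr1:180893910, had 7, 12 and 8 counts, and all were unlisted in the differentiated library. In the differentiated library the next 4 sites inside the gene, from chr1:180894109 to chr1:180894954, had 9, 8, 6 and 5 counts, and all were unlisted in the undifferentiated library. For CCGG sites the switch from one set to the other fell between 802 bases and 1.00 kb after the start. Of these 7 sites none was called in Fisher's exact test with Benjamini-Hochberg adjustment over all CCGG sites, and the last, with 5 counts, was below the minimum for that test. The 2 within 1 kb of the start, at -584 and 802 bases, had adjusted p values of 0.194 and 0.566 in that exact test. Of the 2 CCTGG sites within 1 kb, the one at -634 bases had 7 counts in the undifferentiated library only. The other, at 990 bases, had 9 counts in the differentiated library only, identical to those of the CCGG 11 bases away, so the pair may count the same reads. These runs were picked out after their values were seen, and the genome held others like them. There were 4893 runs of at least 3 CCGG sites listed in the undifferentiated library only, with 11.5% of such sites. Runs of at least 4 listed in the differentiated library only numbered 797, with 3.71% of such sites.

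The 2 other CCGG sites of Lefty2 were listed in both libraries. At chr1:180896504 the counts were 14 and 18 (undifferentiated first, here and below). At chr1:180896854, 3.75 kb after the start, they were 29 and 11, or 1.74 and 0.700 CPM, and this site fell by 1.31 on the log2 scale (interval -2.46 to -0.27, adjusted p = 0.0454 by Fisher's exact test). Summed over the gene with unlisted sites at 4 counts, Lefty2 had 4.01 and 3.88 CPM, a log2 ratio of -0.05 (-0.57 to 0.47, adjusted p = 0.921, Fisher's exact test over all genes without flanks, of which 35.9% were called). With 10 kb on each side the levels were 6.53 and 8.40 CPM and the log2 ratio was 0.36 (-0.01 to 0.74, adjusted p = 0.118, Fisher's exact test). With 5 kb on each side the ratio was -0.23. In the upstream flank, chr1:180886369 at -6.74 kb had 13 and 37 counts, or 0.779 and 2.36 CPM, and rose by 1.60 on the log2 scale (0.65 to 2.63, adjusted p = 0.00337 by Fisher's exact test).

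Lefty1 (chr1:180935022-180938401) had no listed CCGG site between its start and end in either library. How many CCGG motifs Lefty1 holds was not counted. A single CCAGG, at chr1:180937881, had 6 counts in the differentiated library. The nearest listed CCGG sites on either side, chr1:180932222 and chr1:180940969, were listed in both libraries. With 10 kb on each side Lefty1 had 13.1 and 15.5 CPM over 12 sites, a log2 ratio of 0.24 (-0.03 to 0.51, adjusted p = 0.146, Fisher's exact test). Lefty1 and Lefty2 are close homologues, and how reads that match both were treated is not given in the sources used here, so low counts inside either gene are uncertain.

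Across the Lefty1 and Lefty2 locus 72 CCGG sites were listed, 53 in both libraries, 13 in the undifferentiated only and 6 in the differentiated only. Of the 68 tested, 4 were called higher and 4 lower in the differentiated library. Genome-wide 23.5% of 763323 CCGG sites were called, 11.6% higher and 11.9% lower, so the 11.8% called here was below the background. The called site farthest upstream of Lefty2, chr1:180878754 in the non-coding RNA gene Gm39714, had 22 and 46 counts. It rose by 1.15 on the log2 scale (adjusted p = 0.0141, Fisher's exact test), a call lost when levels are scaled by the RPM divisors, those the authors used for their RPM column, in place of the CCGG totals.

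Another 4 called sites of the locus lay in Tmem63a, which encodes a mechanosensitive ion channel and begins 3.88 kb beyond the end of Lefty1. Its part of the locus held 28 CCGG sites with 739 and 639 counts. The highest, chr1:180947107 at 12.08 kb from the Lefty1 start, rose from 59 to 100 counts, or from 3.54 to 6.37 CPM (log2 0.85, 0.37 to 1.34, adjusted p = 0.00343 by Fisher's exact test). A CCTGG 8 bases away, chr1:180947115, had identical counts, so the pair may count the same reads. The other 3 fell. At chr1:180949486 there were 26 and 9 counts (adjusted p = 0.0443, Fisher's exact test), and at chr1:180960660, the highest site in the undifferentiated library, 82 and 37 counts, a log2 ratio of -1.06 (-1.66 to -0.48, adjusted p = 0.00184 by Fisher's exact test). At chr1:180957422 there were 45 counts in the undifferentiated library and none listed in the differentiated, at least 10.6-fold lower (adjusted p = 4.33e-07 by Fisher's exact test). That site and its neighbours on both sides, with 11 and 14 counts, formed a run of 3 listed in the undifferentiated library only, over 0.93 kb. The next highest sums of the locus were at sites that did not pass the test, chr1:180948472 with 66 and 73 counts and chr1:180953897 with 68 and 52 (adjusted p = 0.546 and 0.453, Fisher's exact test).

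Inside Sall4 (chr2:168748332-168767201, minus strand) more CCGG sites were listed after differentiation. The gene as a whole was called higher without its flanks, but neither over the 5 sites listed in both libraries nor with 10 kb on each side. The undifferentiated library listed 5 CCGG sites with 85 counts, and the differentiated library listed the same 5 and 7 more, 12 in all with 167 counts. The shared sites lay in the last part of the gene, 15.57 to 17.88 kb from the start, with 23 and 18, 11 and 9, 16 and 25, 13 and 19, and 22 and 41 counts. Of these only the last, chr2:168751628, passed the test, at a log2 ratio of 0.99 (0.20 to 1.80, adjusted p = 0.0478 by Fisher's exact test). It lost the call under median-ratio scaling, which sets the median ratio of sites that had 10 or more counts in each library to 1 (adjusted p = 0.102, Fisher's exact test), under the RPM divisors (0.159) and with no minimum count (0.0502). The 7 other sites lay together in chr2:168754680-168756744, a stretch of 2.06 kb from 10.46 to 12.52 kb after the start. They had 5 to 10 counts each and 55 in all in the differentiated library, against at most 4 each in the undifferentiated library. Among them chr2:168756730 and chr2:168756744 lay within 16 bases of each other, so some reads may be counted at both. Taken singly none of them was called, and the one with 5 counts was below the minimum for the test. Of the genome's 99821 CCGG sites listed in the differentiated library only, 0.433% lay in a run this long, in 52 runs of at least 7. This run too was picked out after its values were seen.

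With unlisted sites at 4 counts, Sall4 without flanks had 6.77 and 10.6 CPM, a log2 ratio of 0.65 (0.30 to 1.01, adjusted p = 0.00130, Fisher's exact test over all genes without flanks, a comparison added after the data were seen). Over the 5 sites listed in both libraries the ratio was 0.49 and did not pass (adjusted p = 0.0586, Fisher's exact test). With 10 kb on each side it was 0.03 (-0.19 to 0.25, adjusted p = 0.866, Fisher's exact test), from 313 and 312 listed counts. The 4 intergenic sites between Atp9a and Sall4 had 127 counts together before and 93 after differentiation. Among them chr2:168745252 and chr2:168745475 had 30 and 11, and 32 and 12 counts, and fell by 1.36 and fell by 1.33 on the log2 scale (adjusted p = 0.0346 and 0.0300, Fisher's exact test).

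Upstream of Sall4, in the 26.89 kb of intergenic sequence to the end of the locus, 16 CCGG sites were listed before and 10 after differentiation, all 10 of them shared. The site nearest the start, chr2:168771167 at -3.97 kb, had 31 and 12 counts and fell (log2 -1.28, adjusted p = 0.0399 by Fisher's exact test). At -7.92 kb, chr2:168775126 had 18 counts in the undifferentiated library and none listed in the differentiated, at least 4.24-fold lower (adjusted p = 0.0250, Fisher's exact test). Farther out the one called site was higher after differentiation. At -15.04 kb, chr2:168782246, the highest CCGG site of the locus, rose from 31 to 69 counts, or from 1.86 to 4.39 CPM (log2 1.24, 0.61 to 1.90, adjusted p = 0.000811 by Fisher's exact test). Its neighbour at -17.36 kb, chr2:168784557, had 37 and 57 counts and did not pass (adjusted p = 0.0803, Fisher's exact test).

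The remaining called sites of the Sall4 locus lay in Atp9a, a P4-type ATPase gene that reaches into the interval. Here 4 fell and 2 rose. Those that fell were chr2:168721482 with 34 and 14 counts, chr2:168723958 with 34 and 12, chr2:168734167 with 18 and 5, and chr2:168729178 with 18 counts in the undifferentiated library and none listed in the differentiated. Those that rose were chr2:168726987 with 20 and 39 counts and chr2:168731192, listed in the differentiated library only with 17. Their adjusted p values ran from 0.0172 to 0.0488 by Fisher's exact test. The call of chr2:168726987 was lost under both other scalings, and that of chr2:168734167 with no minimum count. Over the whole locus 12 of 45 tested sites were called, 4 higher and 8 lower. That 26.7% lay close to the genome's 23.5%. The third highest site of the locus, chr2:168743471, had 41 and 33 counts.

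At the Trim28 locus more CCGG sites were listed in the differentiated library, and of the 10 listed in both libraries 9 had a higher level there, in the neighbouring genes as well as in Trim28. Of 23 CCGG sites listed there, 10 were listed in both libraries, 2 in the undifferentiated only and 11 in the differentiated only. The latter make up 47.8%, against 12.5% of all CCGG sites. Over the 10 sites listed in both libraries the median log2 ratio was 0.82, beside 0.09 over the 560641 such sites of the genome. Of the 21 sites tested 3 were called higher and 1 lower, or 19.0%.

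Trim28 itself (chr7:13024152-13031032) held 1 listed CCGG site, chr7:13029709, 5.56 kb after the start. It had 23 and 38 counts, or 1.38 and 2.42 CPM, and did not pass the test as a site (log2 0.81, 0.03 to 1.63, adjusted p = 0.120 by Fisher's exact test). The nearest site upstream, chr7:13018836 at -5.32 kb, had 15 and 21 counts. With 10 kb on each side Trim28 rose from 4.25 to 7.07 CPM over 8 sites, a log2 ratio of 0.73 (0.29 to 1.18, adjusted p = 0.00403, Fisher's exact test). Of the 43438 genes tested with such flanks, 35.9% were called.

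The called sites were all outside Trim28, in the zinc finger genes Zbtb45 and Mzf1 at the ends of the locus. In Zbtb45 all 4 listed CCGG sites were listed in the differentiated library only, with 14, 6, 6 and 22 counts. The highest of them, chr7:13007636, was called at a rise of at least 5.84-fold (adjusted p = 0.00259, Fisher's exact test), and a CCTGG 12 bases away, chr7:13007624, had 25 counts in that library and was unlisted in the other. With the next 2 sites, chr7:13012929 and chr7:13012968, they formed a run of 6 that held 61 counts over 6.43 kb. The genome held 113 such runs of at least 6, with 0.799% of the CCGG sites listed in the differentiated library only. In Mzf1, chr7:13044450 rose from 6 to 19 and chr7:13053156 from 28 to 49 counts (log2 1.75 and 0.89, adjusted p = 0.0371 and 0.0390, Fisher's exact test). Both calls were lost under median-ratio scaling (adjusted p = 0.0610 and 0.100, Fisher's exact test) and under the RPM divisors (0.0878 and 0.149). One Mzf1 site went against the others: chr7:13051148 had 27 counts in the undifferentiated library and was unlisted in the differentiated, at least 6.35-fold lower (adjusted p = 0.000704, Fisher's exact test). A CCTGG 10 bases from it, chr7:13051138, had the same counts. The highest CCGG site of the locus, chr7:13003708, had 41 and 52 counts and did not pass (adjusted p = 0.344, Fisher's exact test). Between these ends, the sites of Chmp2a, an ESCRT-III subunit gene, summed to 14 and 23 counts, and those of Ube2m, a NEDD8-conjugating enzyme gene, to 7 and 22.

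**Figure D2:**
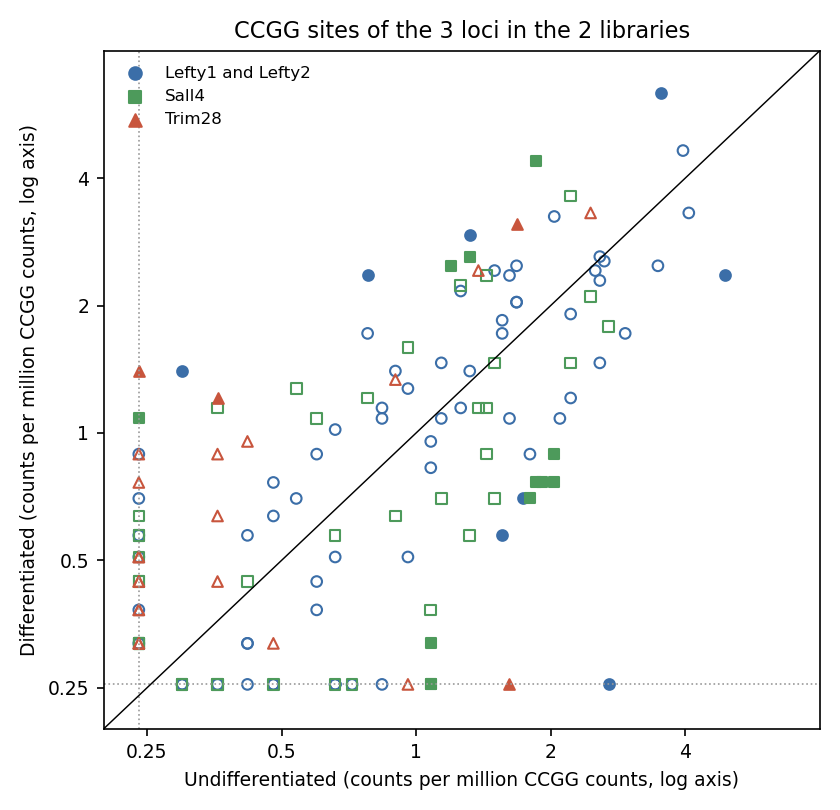
Each point is 1 CCGG site of the 3 loci, with its level in the undifferentiated library on the horizontal and in the differentiated library on the vertical log axis, both in counts per 1000000 CCGG counts. Filled points are the 24 called sites, the dotted lines mark the level given to unlisted sites (0.240 and 0.255), the solid line marks equal levels, and 9 of the 10 Trim28 sites off the dotted lines lie above the solid line.

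Taken over all 3 loci, 24 of 134 tested CCGG sites were called, 11 higher and 13 lower. The 17.9% called was below the 23.5% of the genome, so changes at single sites were no more frequent here than elsewhere. The split depends on the scaling. A median-ratio scaling lowers every log2 ratio by 0.16 and gives 7 higher and 19 lower. The divisors behind the deposited RPM values lower it by 0.23 and give 6 and 22.

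Summed over each locus, only Trim28 passed the test. The Lefty1 and Lefty2 locus had 1552 listed CCGG counts in the undifferentiated (95% Poisson interval 1476 to 1631) and 1423 in the differentiated library (1350 to 1499). With unlisted sites at 4 counts this is 94.4 and 93.9 CPM, a log2 ratio of -0.01 (-0.11 to 0.10, adjusted p = 0.931, Fisher's exact test over all genome tiles of the same length, 36% of which were called). The sum thus stayed level while single sites in it went both ways. The Sall4 locus had 813 and 750 counts, or 51.4 and 50.05 CPM (log2 -0.04, -0.18 to 0.10, adjusted p = 0.728 by Fisher's exact test, 34.6% of tiles called). Both of these loci were called lower with median-ratio scaling or with the RPM divisors. The Trim28 locus had 189 (163 to 218) and 330 (295 to 368) counts, or 14.0 and 21.5 CPM. It rose by 0.62 on the log2 scale (0.38 to 0.87, adjusted p = 6.9e-06 by Fisher's exact test, 33.8% of tiles called), and was called higher under every alternative run, at 0.40 to 0.89. Among the 44394 tiles of its length the Trim28 locus stood at percentile 95.3, where the median tile had 0.04, while the Lefty1 and Lefty2 locus and the Sall4 locus stood at percentiles 42.2 and 39.1 of theirs.

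**Figure D3:**
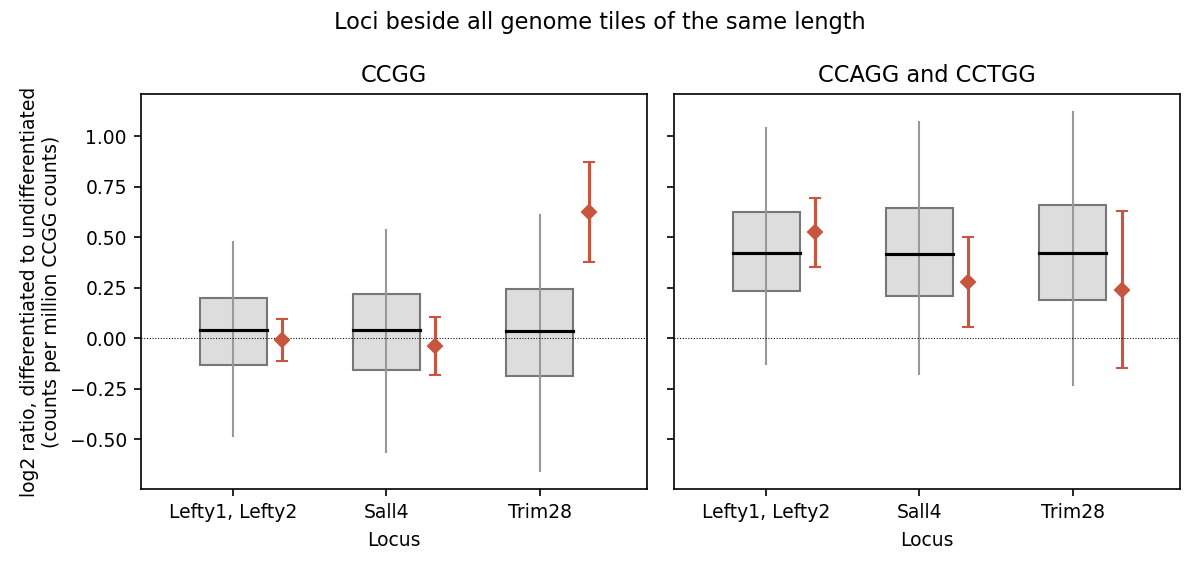
The log2 ratio of the differentiated to the undifferentiated library, in counts per 1000000 CCGG counts, for each locus (diamonds with 95% counting intervals) beside all genome tiles of the same length (box from the lower to the upper quartile, black line at the median, grey line from percentile 5 to 95). For CCGG sites the Trim28 locus, at 0.62, lies above the upper end of the grey line, at 0.61, and for CCAGG and CCTGG sites all 3 loci lie within the grey lines.

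Non-CpG sites were listed more often in the differentiated library at all 3 loci, as in the series as a whole. Non-CpG counts made up 18.8% of the undifferentiated and 26.2% of the differentiated library. At the Lefty1 and Lefty2 locus 36 of 65 CCAGG and CCTGG sites were listed in the differentiated library only and 9 in the undifferentiated only. The Sall4 locus had 17 and 5 of 32, and the Trim28 locus 11 and 3 of 16. Over the 3 loci 56.6% were listed in the differentiated library only, beside 44.7% of all such sites. Within the genes, Lefty2 had 4 non-CpG sites with 29 counts and Sall4 had 5 with 37 counts, all listed in the differentiated library only. Trim28 had 3 sites with 31 counts in the undifferentiated and 5 with 37 in the differentiated library.

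Inside Trim28 some non-CpG sites were listed in one library and some in the other. Near its start 3 sites, at 32, 244 and 925 bases, had 11, 6 and 8 counts in the differentiated library and were unlisted in the other. Farther in, chr7:13028949 and chr7:13028984, both CCAGG, had 14 and 11 counts in the undifferentiated library and were unlisted in the differentiated. Between these and the sites near the start, chr7:13025193 had 6 and 7 counts, and chr7:13028302 had 5 in the differentiated library only. Those not near the start were picked out after their values were seen. The 3 sites near the start lay over 4 kb from any listed CCGG, so that they share no reads with one. Across the loci 19 of 113 non-CpG sites lay within 16 bases of a listed CCGG, close enough for a read to cover both. Of the 76 sites more than 100 bases from a CCGG, 23 were listed before and 66 after differentiation, with 13 in both.

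In CPM, the non-CpG log2 ratio was 0.52 (0.36 to 0.69) at the Lefty1 and Lefty2 locus, 0.28 (0.05 to 0.50) at the Sall4 locus and 0.24 (-0.15 to 0.63) at the Trim28 locus. The median tile of each length had 0.42, which lies inside all 3 intervals. Scaled to each library's own non-CpG total, the ratios were -0.10 (adjusted p = 0.425), -0.34 (adjusted p = 0.0126) and -0.38 (adjusted p = 0.138) by Fisher's exact test. On that scale the Sall4 locus was called lower, as were 6991 of the 7551 called tiles of its length. These ratios rest on the 4 counts given to unlisted sites. With 0 counts the CPM ratios were 0.93, 0.55 and 0.84, where the change to the non-CpG total lowers each by 0.62, so that only the Sall4 locus would stay below 0. The share of tiles called was 30.6%, 28.2% and 26.3% for the 3 lengths. The highest non-CpG site of the Sall4 locus, chr2:168787602, had 55 and 43 counts and lay 236 bases from the nearest listed CCGG. The next highest, chr2:168726982, had 20 and 39 counts, identical to those of a CCGG 5 bases away. At the Lefty1 and Lefty2 locus the second highest, chr1:180961122, had 43 and 39 counts.

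**Figure D4:**
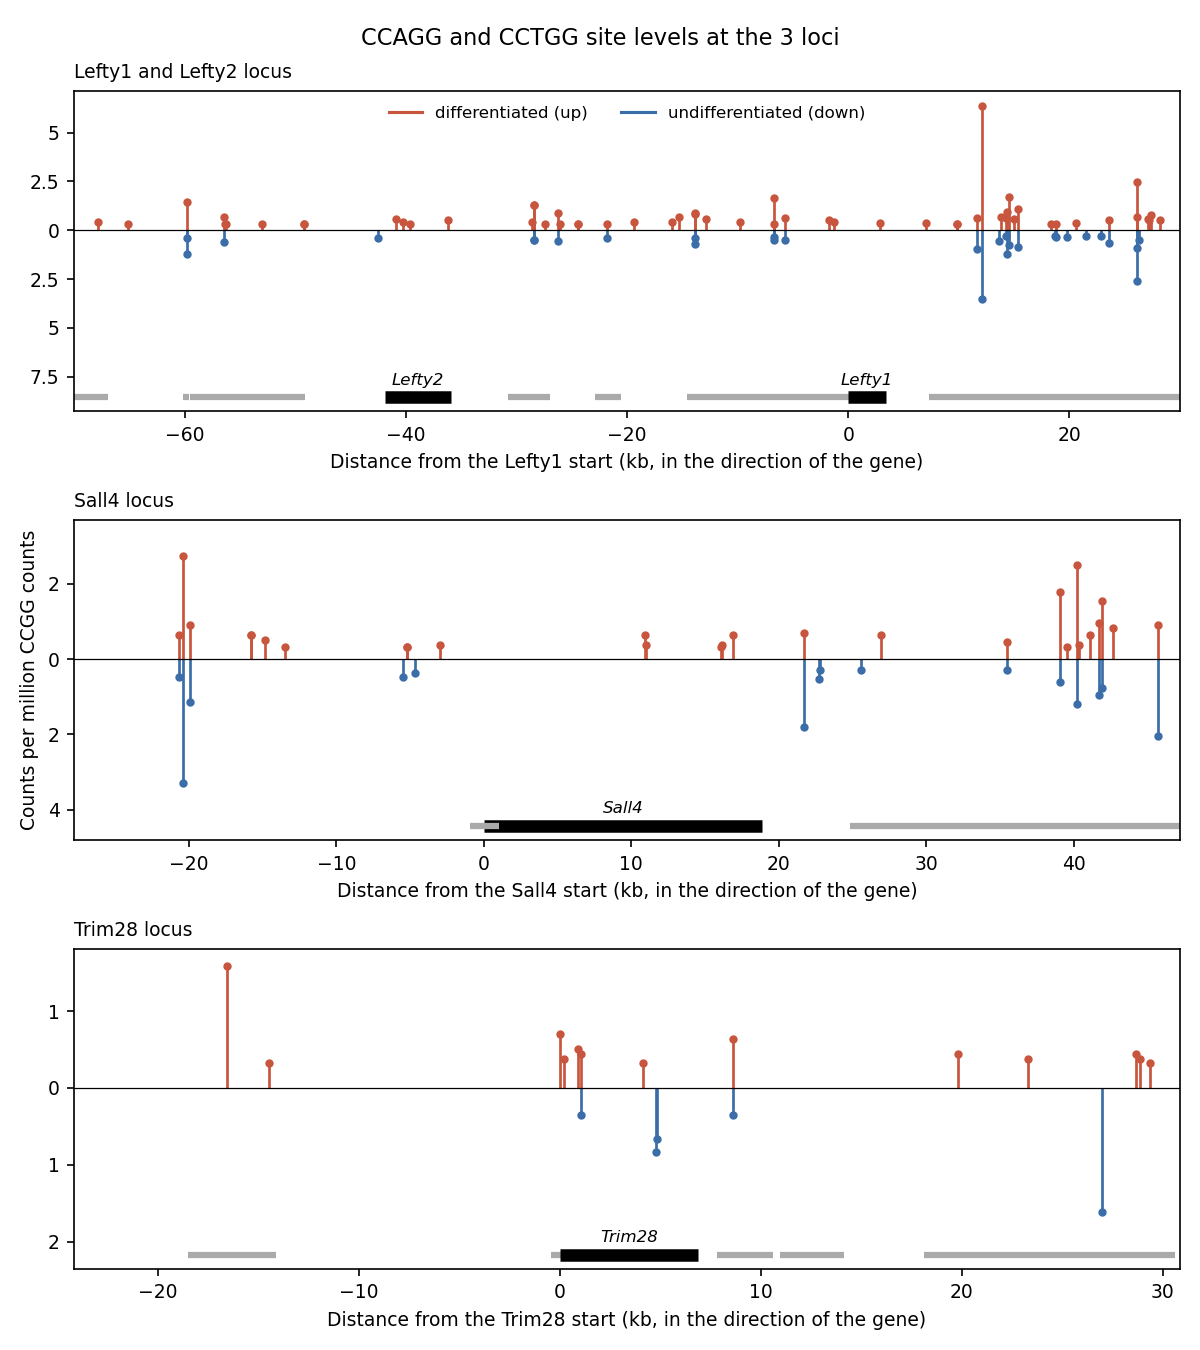
CCAGG and CCTGG levels in counts per 1000000 CCGG counts, upward for the differentiated and downward for the undifferentiated library, against distance in kb from the start of Lefty1, Sall4 or Trim28. More sites have an upward stem only than a downward stem only at each locus (36 against 9, 17 against 5 and 11 against 3), and the cluster at the Trim28 start points upward.

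Genes that act with the 4 were scored in the same way, over the gene with 10 kb on each side. Of 19 genes of the Nodal pathway, Lefty1 and Lefty2 included, 5 rose and 3 fell by Fisher's exact test, with a median log2 ratio of 0.09 beside 0.05 over all genes, of which 35.9% were called. The co-receptor gene Tdgf1 rose by 0.40, the receptor gene Acvr1c by 0.29, Smad3, which carries the signal to the nucleus, by 0.20, and the proprotein convertase genes Furin and Pcsk6, which process Nodal, by 0.18 and 0.10. Those that fell were the ligand gene Gdf3 (log2 -0.42), the secreted Nodal antagonist gene Cer1 (-0.44) and Skil, which encodes a Smad repressor (-0.44). Nodal itself had 15.3 and 16.2 CPM (log2 0.09, -0.17 to 0.34) and was not called. Of the secreted inhibitors, Cer1 fell and Lefty1, Lefty2 and Dand5 were not called, and differences between them were not tested. The rises of Smad3, Furin and Pcsk6 turn negative under the RPM divisors, and that of Pcsk6 also under median-ratio scaling.

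Of 21 genes that encode Sall proteins, NuRD subunits or partners of Trim28, 6 rose and 2 fell by the same exact test, with a median of 0.03. Trim28 had the largest rise of the list. The others that rose were Sall3 (0.57), the NuRD genes Mbd3 (0.55), Hdac1 (0.24) and Mta1 (0.23), and Trim24 (0.38), a relative of Trim28. Zfp57, a KRAB zinc finger gene whose protein guards imprinted loci with Trim28, fell by 0.94, and Sall2 fell by 0.34. The rises of Hdac1 and Mta1 are barely larger than the 0.23 by which the RPM divisors lower every ratio, and lie near 0 on that scale. Setdb1 and the 3 HP1 genes Cbx1, Cbx3 and Cbx5 were not called. The shares called, 42.1% and 38.1%, lay near the 35.9% of all genes, and the list members were chosen with earlier results of these data known.

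**Figure D5:**
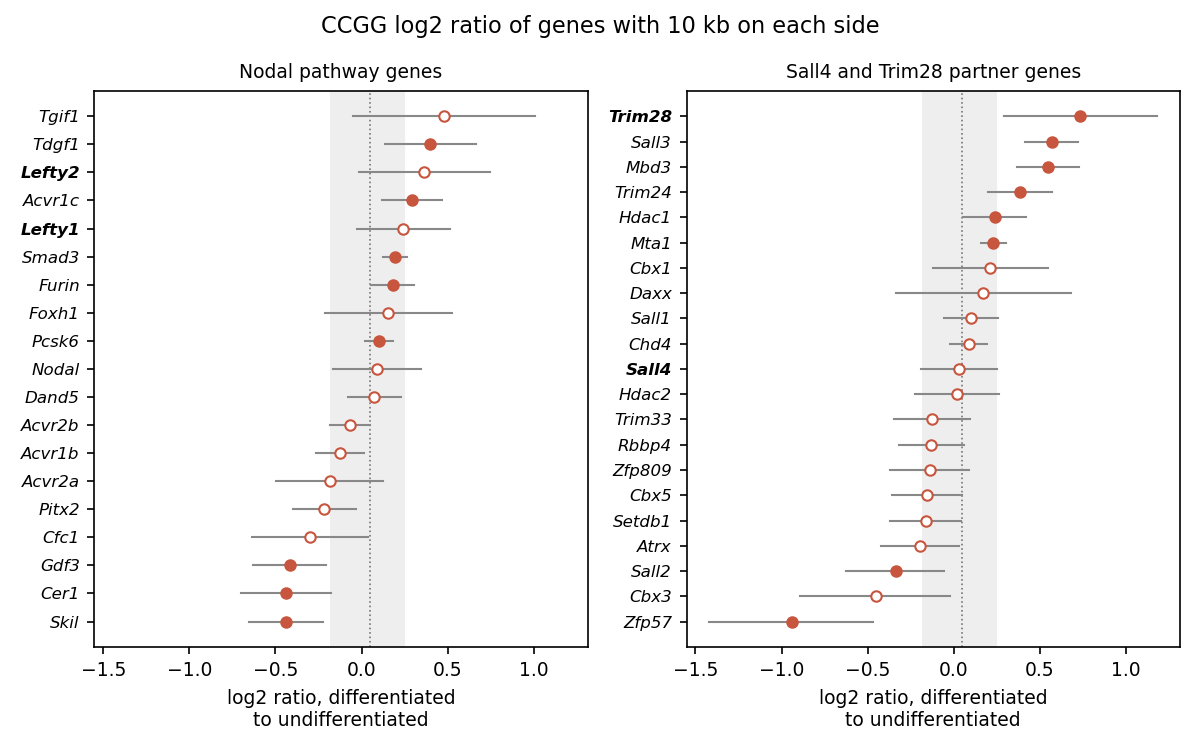
The CCGG log2 ratio of the differentiated to the undifferentiated library for the genes of both lists with 10 kb on each side, with 95% counting intervals as lines. Filled points passed the test, the grey band spans the quartiles of all genes (-0.18 to 0.25) around their median of 0.05, and Trim28, at 0.73, and Zfp57, at -0.94, mark the 2 ends of the right-hand list.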

How the data were processed

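Reads were aligned by the authors to GRCm38 with tools that include Bowtie2 2.3.3 and FastQC 0.11.3, per the submitters' processing notes; read filters and the treatment of reads with several matches are not given in the sources used here. A tag in the tables' names may mean that duplicates were removed, without saying of reads or of entries, so whether counts are of distinct fragments is unknown. The deposited tables give a whole count of reads per site, from 5 upward, and a value headed RPM per the file headers. That value was treated as a score, made by the authors from the count by a divisor of 2221852 (undifferentiated) or 2446243 (differentiated) and a factor of 1000000, as the deposited columns show. It sums to 9249232.2 and 8703649.0, and the divisors served only as an alternative scaling.

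Sites were taken from the 3 intervals and levels given per 1000000 CCGG counts (CPM). An unlisted site was set to 4 counts, which makes its fold a lower bound. Fisher's exact test, two-sided, was run on all CCGG sites that reached 10 counts over both libraries, and on all genome tiles of each locus's length and all genes that reached 50. A site, tile or gene was called where the Benjamini-Hochberg adjusted p lay under 0.05. Non-CpG tiles were tested against the non-CpG total. At 50 positions the motif differed between libraries and these were left out. Scripts ran under pandas 2.3.3, scipy 1.17.1, numpy 2.4.6 and Python 3.11.15 and were tested on simulated data.

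Gene and promoter positions are RefSeq's on GRCm38.p6. The strands of Lefty1, Lefty2 and Sall4 come from general knowledge, since the gene table has none. Exons, introns and enhancer coordinates were not analysed here. Named sites are every called CCGG site except 1, which is not reported here, the 3 highest CCGG and 2 highest non-CpG sites of each locus, and listed sites within 1 kb of a member's start. Other sites named, inside or flanking the 4 genes or in runs, fall outside this rule and were chosen after their values were seen. The members, lists and tests were chosen with earlier results of these data known. Alternatives concerned unlisted sites, scaling, alignment type, the highest site, sites that share reads, minimum counts and flanks; genes without flanks and a minimum of 10 counts per site were added after seeing the data.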

Additional observations from a re-analysis of the deposited data

How the results depend on the processing

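With only sites listed in both libraries, the Lefty1 and Lefty2 locus gave a CCGG log2 ratio of 0.052 in place of -0.01. Median-ratio scaling gave -0.16 there and -0.19 at the Sall4 locus, and the RPM divisors gave -0.23 and -0.26, all 4 called lower. The Trim28 locus kept its call under all 9 alternatives. Called CCGG sites numbered 18 higher and 21 lower with unlisted sites at 0 counts, 7 higher under median-ratio scaling, and 6 higher and 22 lower under the RPM divisors, in place of 11 and 13. The non-CpG ratios of the Lefty1 and Lefty2, Sall4 and Trim28 loci were 0.93, 0.55 and 0.84 with unlisted sites at 0 counts and -0.10, -0.34 and -0.38 on the non-CpG totals. The first was 0.74 with only sites over 100 bases from a CCGG, and the second 0.053 with only sites listed in both libraries. Lefty2 gave -0.23 with 5 kb on each side and -0.048 without flanks. Sall4 with 10 kb on each side gave -0.12 under median-ratio scaling and 0.65, called, without flanks, and 0.49 without flanks over sites listed in both libraries. Trim28 without flanks gave 0.81 and was not called. For the 24 called sites, 127 of 138 checks kept call and direction, 0 reversed, and 11, at the 6 sites named with such a loss above, lost the call. For a site listed in both libraries only the scaling changes the ratio, so the other checks could not reverse it. Called sites unlisted in 1 library had no check with only sites listed in both libraries, and that setting is not among their checks. Where no reason follows from the setting's own construction, the cause was not tested. No paired analysis was possible because each state had 1 library. The listing minimum of 5 counts limits what can be said of any site with few reads.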
